A study of Homo sapiens with 38 samples.

Results

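Nuclear RNA of HCT116 cells without AGO2 was compared with nuclear RNA of wild-type HCT116 cells. The comparison used 6 of the 30 RNA-seq libraries of the series, chosen by their labels: the 3 nuclear libraries of the AGO2 knockout line (culture passages 8, 9 and 10) and the 3 nuclear wild-type libraries (passages 27, 28 and 29). HCT116 is a human colorectal carcinoma cell line with a near-diploid genome, grown here in McCoy's 5A medium with fetal bovine serum. The AGO2 knockout was 1 line made from these cells by CRISPR editing, and the series also holds lines without AGO1, AGO1/2 and AGO1/2/3. The question was which genes and pathways differ in the nucleus when AGO2 is missing. The knockout is a single line and its passages do not overlap those of the wild-type cells. Genotype, clone and passage therefore cannot be told apart. Every p-value measures the spread between passages within lines and not the spread between independent lines. In the fits that spread was pooled over all lines entered. Fewer cells with an RNA and less of that RNA per cell also cannot be told apart in bulk samples.

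Argonaute proteins hold a microRNA and use its first bases, the seed, to find matching messenger RNAs, mostly in 3′ untranslated regions, and GW182 proteins bound to argonaute then recruit the enzymes that repress translation and remove the poly(A) tail. AGO2 is the human argonaute with the strongest slicing activity and is found in both cytoplasm and nucleus. Targets of a microRNA can therefore rise when argonaute is lost, and the other argonautes can load the same microRNAs.

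The nuclear libraries held 35530955 to 36880820 estimated reads in AGO2 knockout cells and 20431557 to 26536692 in wild-type cells, so that counting error was larger in the wild-type libraries. MALAT1, a nuclear noncoding RNA, took 1.11% to 1.20% of the reads in the knockout and 1.48% to 2.22% in wild-type libraries. Mitochondrially encoded RNA, which marks carry-over of cytoplasm, took 0.370% to 0.413% and 0.355% to 0.537%. The wild-type library of passage 29 stood apart: the SD over genes of its log2 difference from the other wild-type libraries was 0.603 and 0.629, against 0.464 between passages 27 and 28, and results that rest on it are given without it. The epithelial genes EPCAM, KRT8, KRT18 and KRT19 averaged from 98.1 to 498 TPM in both groups. CDH1, also epithelial, averaged 17.4 TPM in knockout and 21.3 TPM in wild-type libraries. Of the colon markers, CDX2 averaged 3.86 and 3.52 TPM, whereas VIL1 and CEACAM5 averaged at most 0.0307 TPM, near 0. Of 34 fibroblast, blood cell, endothelial and neuronal markers, 12 passed the filter on low counts.

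The targeted gene was examined first. AGO2 (ENSG00000123908.12, GRCh38 chromosome 8, 140520156 to 140635633, minus strand) had 375.3, 340.0 and 356.8 CPM (reads scaled to library size with the TMM method) in the knockout libraries and 534.8, 498.0 and 454.7 CPM in the wild-type libraries. All knockout libraries were below all wild-type libraries, and AGO2 mRNA fell by 0.47 on the log2 scale (SE 0.08, adjusted p = 0.000251 in edgeR), to 0.721 of wild type. On the TPM scale the difference was larger, with gene TPM of 29.98 ± 3.73 (SD, n = 3) in knockout and 52.97 ± 6.20 (SD, n = 3) in wild-type libraries and a log2 change of -0.80 with limma on log2(TPM + 1). An exact two-sided permutation test of 3 libraries against 3 gave p = 0.1, the smallest it can give. The main coding transcript, AGO2-201, was listed at 16.7, 14.6 and 14.5 TPM in the knockout and at 28.1, 25.7 and 21.01 TPM in wild-type cells. AGO2 mRNA was thus still present at 340.0 CPM or more. The tables give mRNA and not protein, and they do not show which bases were edited.

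The other argonaute genes are given next. AGO1 stood at 170.6, 161.6 and 163.0 CPM in the knockout and 156.4, 155.0 and 130.4 CPM in wild-type cells, a log2 difference of 0.16 that was not called (adjusted p = 0.0644) but was called when wild-type passage 27 or 28 was left out (0.24 and 0.23). AGO3 (-0.19, adjusted p = 0.0208) and AGO4 (-0.43, adjusted p = 0.0179) were lower, and both calls were lost when single libraries were left out (AGO3 without knockout passage 8 or 9 or wild-type passage 27 or 28, AGO4 without knockout passage 8 or 9 or wild-type passage 29). The direct neighbour CHRAC1, a histone-fold subunit of a chromatin remodelling complex whose gene starts beside AGO2, rose by 0.43 (adjusted p = 0.00178). On the other side, PTK2, focal adhesion kinase, differed by -0.05 and was not called.

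A gene was called when its Benjamini-Hochberg adjusted p did not exceed 0.05. Of 18919 genes tested 7596 were called, which is 40.2% (9129 had an unadjusted p below 0.05). Of these, 3824 were higher in the knockout (20.2% of tested genes) and 3772 lower (19.9%), and the median change of a called gene was 1.39-fold. Large changes were mostly losses: 1175 called genes (6.21%) changed at least 2-fold, 115 of them upward and 1060 downward, and at 4-fold the numbers were 19 and 241. The 2-fold count was 453 with a mean count of at least 50 and 389 with limma on log2(TPM + 1). The knockout and wild-type libraries did not overlap in CPM for 9148 genes (48.4%). The even split of calls depends on the scale. On log2(TPM + 1), limma called 679 genes higher and 6311 lower (9.71% higher, against 50.3% in the count fit), and the median of all genes moved by -0.17, so that list medians on that scale are given relative to this shift. Small structural RNAs, which carry a large part of the TPM total, took 53.1% to 56.0% of TPM in knockout and 51.4% to 55.2% in wild-type libraries, and their part in the shift was not tested.

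**Figure D1:**
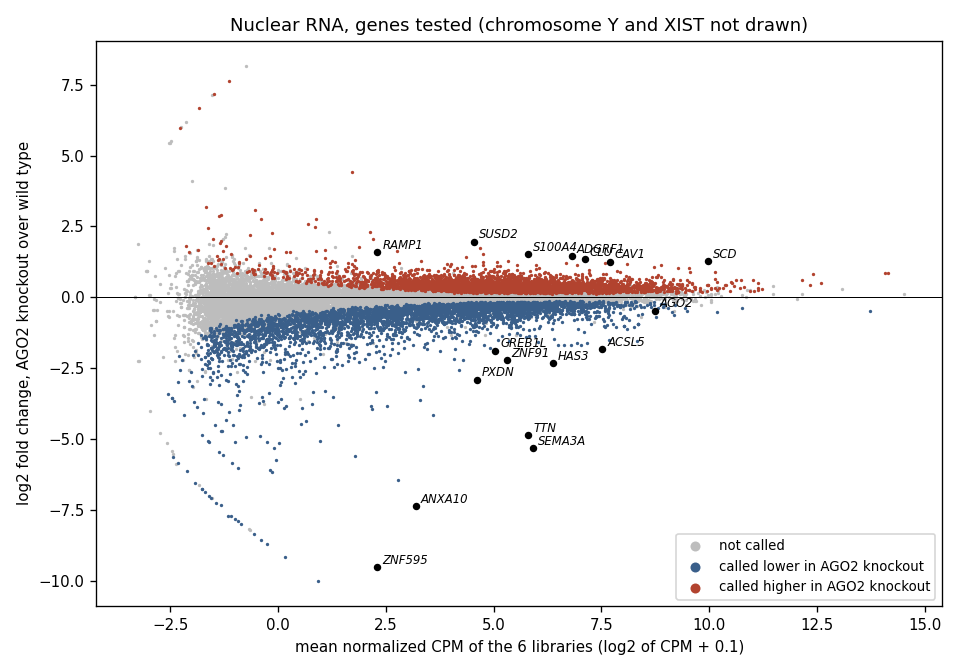
Each point is a gene tested in nuclear RNA, placed by its mean normalized level in the 6 libraries (x, log2 of CPM + 0.1) and its log2 fold change, AGO2 knockout over wild type (y), with called genes in colour; genes of chromosome Y and XIST are not drawn. Falls reach further than rises: 241 called genes fell at least 4-fold and 19 rose as much, and of the labelled genes ZNF595, ANXA10, SEMA3A and TTN lie lowest.

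The protein-coding genes with the strongest rises that reached 5 TPM are described first. SUSD2, a membrane protein with a sushi domain, had 36.5, 36.6 and 37.8 CPM in knockout and 8.73, 7.95 and 11.8 CPM in wild-type libraries. It rose 3.91-fold (log2 1.97, SE 0.19, adjusted p = 2.96e-06). The lowest knockout library was far above the highest wild-type library. RAMP1, the partner of the calcitonin gene-related peptide receptor, rose by 1.59 on the log2 scale, and S100A4, a calcium-binding protein of motile cells, by 1.51. The adhesion receptor ADGRF1 stood at 166.4, 156.3 and 170.2 CPM against 56.5, 61.5 and 62.6 CPM. CLU, the extracellular chaperone clusterin, was the most even of the group, with 203.6, 194.9 and 198.6 CPM in knockout and 78.0, 78.5 and 79.3 CPM in wild-type cells. INSIG1, which retains the sterol sensor in the endoplasmic reticulum, rose by 1.43, STING1, the adaptor of cytosolic DNA sensing, by 1.28, the glutamate transporter SLC1A3 by 1.27, the fatty acid desaturase SCD by 1.27, the peptide hormone ADM by 1.26 and the caveolar coat protein CAV1 by 1.25. These 11 genes all kept their direction on the TPM scales, and the knockout libraries lay above the wild-type libraries in each.

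Among the genes that fell, several were close to absent from the knockout. ZNF595, a zinc finger gene near the end of the short arm of chromosome 4, had 1 read in the 3 knockout libraries together and 719 in the wild-type libraries, a ratio per read of 1124 with an exact 95% interval of 201 to 44440 that covers counting error only. ANXA10, a calcium-dependent membrane-binding annexin, had 11 reads against 1319 (187-fold, interval 104 to 376). MAGEB1, a cancer-testis antigen, and SPATA18, a p53 target that acts on mitochondria, had 0 reads in all knockout libraries and 69 and 59 in wild-type libraries, at least 35.9-fold and 30.7-fold lower when 3 reads over the group are taken as the floor (the lower limits of the exact 95% interval were 28.5-fold and 24.2-fold). These genes separate the lines as present against nearly absent.

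SEMA3A, a secreted guidance cue, had 2.61, 3.06 and 3.14 CPM in knockout and 110.6, 120.8 and 121.5 CPM in wild-type libraries, and was 40.1-fold lower (adjusted p = 3.49e-11). PXDN, a peroxidase that crosslinks basement membrane collagen, had 5.50, 6.08 and 5.47 CPM against 42.5, 41.2 and 44.4 CPM, 7.51-fold lower. HAS3, which makes hyaluronan, had 35.1, 25.7 and 21.7 CPM against 149.5, 137.3 and 127.9 CPM, 5.03-fold lower. In each of these 3 genes every knockout library lay below every wild-type library. TTN, the giant muscle protein titin, was named after its values were seen because its long transcript keeps its TPM low: it had 3.81, 3.91 and 3.40 CPM against 103.2, 115.2 and 105.0 CPM (log2 -4.86). The zinc finger repressor ZNF91, which silences SVA retrotransposons, had a log2 change of -2.22, the transporter SLC16A6 -2.17, GREB1L -1.88, the muscle LIM protein PDLIM3 -1.82, the fatty acyl-CoA synthetase ACSL5 -1.82 and the protein kinase A inhibitor PKIB -1.80. SLC16A6 and PDLIM3 were spread in wild-type cells, with 20.2 to 40.8 and 12.5 to 25.2 CPM and the highest value in passage 29, and without it their changes were -1.76 and -1.40.

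**Figure D2:**
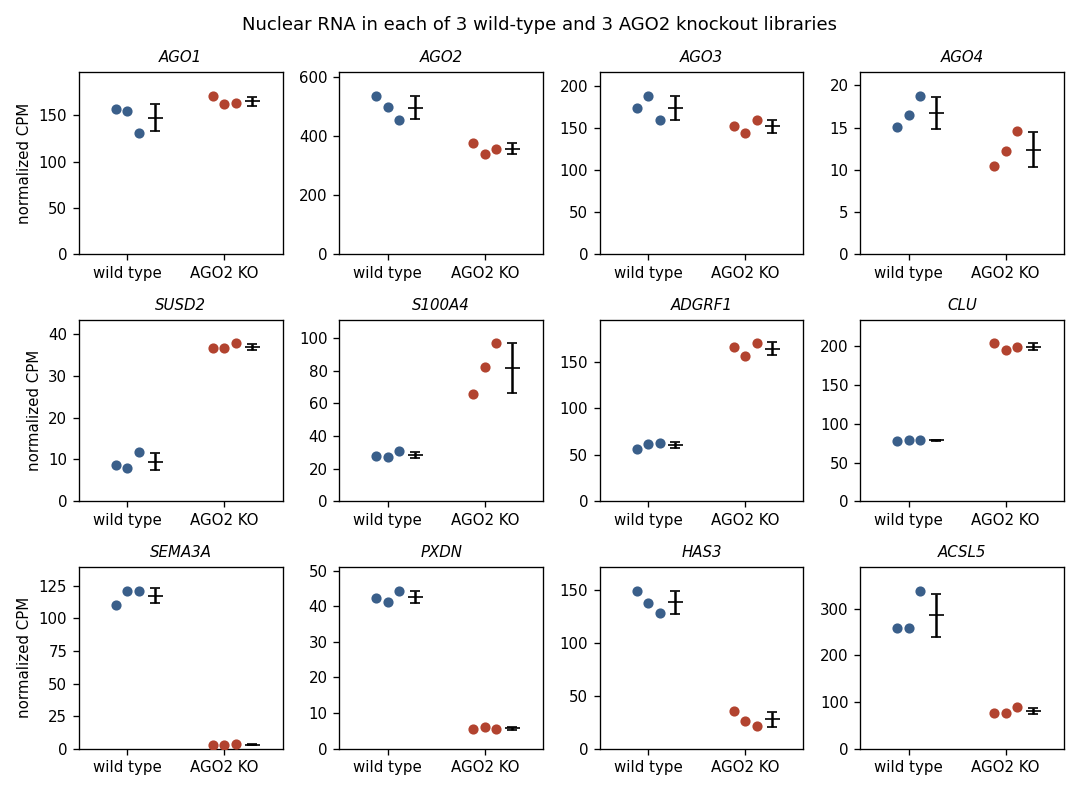
Normalized CPM (y, starting at 0) of the 4 argonaute genes and of 8 genes with large changes in each of the 3 wild-type (blue) and 3 AGO2 knockout (red) nuclear libraries, with the mean and SD of each group beside the points. AGO2 stays at 340.0 CPM or more in the knockout, while SEMA3A falls from at least 110.6 CPM to at most 3.14 CPM and SUSD2 rises from at most 11.8 CPM to at least 36.5 CPM.

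The long noncoding RNAs named by the same rule fell further than they rose. MSRB3-AS1, antisense to the methionine sulfoxide reductase gene MSRB3, had 1, 1.29 and 1.496 CPM in knockout against 20.7, 21.1 and 25.9 CPM in wild-type libraries, 17.9-fold lower (adjusted p = 7.24e-10). MAGI1-IT1 was 5.95-fold, LINC02331 4.70-fold, NR2F2-AS1 3.55-fold and SPRY4-AS1 3.38-fold lower. SPRY4-AS1 had 3.56, 4.02 and 8.22 CPM in wild-type libraries, the highest in passage 29. Without that library its log2 change was -1.27 in place of -1.76. The rises were smaller. LINC02935 rose 2.72-fold at about 1 CPM, LINC03061 2.15-fold, VPS9D1-AS1 1.66-fold and SNHG9, a host of small nucleolar RNAs, 1.597-fold. TERC, the RNA template of telomerase, had 119.1, 118.0 and 130.0 CPM against 65.6, 76.7 and 94.2 CPM, 1.55-fold higher (adjusted p = 0.00189).

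The genes were next read by pathway, in 42 lists of known function, each set beside the 20.2% of genes called higher and 19.9% called lower overall. Counts within a list are a description, and members are not independent of each other. The machinery of RNA interference came first. Of 17 genes, 2 were higher and 5 lower (1 and 4 without wild-type passage 29). TARBP2, a Dicer partner, rose by 0.34 and DICER1 itself by 0.24, but DICER1 stood at -0.01 on the TPM scales and lost its call without knockout passage 8 or 9 or wild-type passage 29. Apart from the argonautes, the falls were of TUT4, which adds uridine to microRNA precursors (-0.33), and ZSWIM8, the ubiquitin ligase adaptor that degrades argonaute on certain targets (-0.24). The list median was 0.07 and turned to -0.23 relative to all genes on the TPM scale. DROSHA and the GW182 genes TNRC6A, TNRC6B and TNRC6C were not called (-0.06, 0.20, 0.07 and 0.09). Of 20 mRNA decay factors, which act below argonaute, 8 were higher and 2 lower (7 and 0 without passage 29), led by the helicase DDX6 (0.41) and the decapping scaffold EDC4 (0.35).

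Genes of cholesterol synthesis and its SREBP regulators had the highest median of all lists with 13 or more tested members. Of 26 members, 23 were higher and 0 lower, with a median log2 change of 0.72 (24 and 0, 0.75 without wild-type passage 29). On the TPM scale 12 were called higher and the median was 0.52 above that of all genes. HMGCS1, the first committed step from acetyl-CoA, had 80.5, 78.9 and 72.8 CPM against 46.6, 54.5 and 47.1 CPM. SQLE, which oxidizes squalene, had 86.6, 85.8 and 82.4 CPM against 51.9, 45.6 and 46.2 CPM, and DHCR7, the last step, 89.5, 86.4 and 86.4 CPM against 40.1, 40.4 and 37.8 CPM. No knockout library overlapped a wild-type library in any of these steps. The transcription factors SREBF2 and SREBF1 rose by 0.75 and 0.64, and the fatty acid enzymes FASN and SCD by 0.89 and 1.27. Only PMVK, STARD4 and FDPS among the 26 were not called (0.12, 0.23 and 0.28). In the cytoplasm 10 of the 26 were called higher and 0 lower (median 0.45).

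Promoter sequence of these genes is shown because the members moved together. A RefSeq promoter entry on GRCh38.p14, from 250 bases before to 50 bases after the start site, was matched for 18 of the 26 genes. Below, a gene counted when any of its entries held the match, whereas shares over all promoters are per entry. A gene with several entries had more chances to match, so the shares are not like measures. The letters CCAAT, on either strand, stood in 15 of the 18 (83.3%) and in 34.6% of all 34961 promoters searched. The sterol element core TCACNCCAC stood in 1 of the 18, SREBF2, and in 1.13% of all promoters. Windows of 10 bases on each side follow, with the match in capitals (ATTGG is CCAAT read on the other strand).
INSIG1: ccggcctcccATTGGttgcggccgc
SCD: ttgcgccgagCCAATggcaacggca
HMGCS1: tttccttttgATTGGtagaagccgg
DHCR7: ggctcctcgaCCAATcacggggcgc
FDPS: cagcccttccATTGGtcgtccgtca
SREBF2: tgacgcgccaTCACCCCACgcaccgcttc
The windows lie at 7:155297698-155297722 (plus strand), 10:100346994-100347018 (plus), 5:43313553-43313577 (minus), 11:71448473-71448497 (minus), 1:155308680-155308704 (plus) and 22:41832962-41832990 (plus), in the order shown. The first 4 genes were called higher, and FDPS, with the same box, was not. A match is a description of letters and not of a bound site.

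Housekeeping groups rose by small amounts in nuclear RNA, where 26.9% of all protein-coding genes were called higher. Of 50 nuclear-encoded respiratory chain genes 39 were higher and 0 lower (median 0.31), with NDUFB7, a subunit of complex I, at 14.6, 16.7 and 15.5 CPM against 10.2, 9.37 and 11.9 CPM and CYC1, cytochrome c1, up by 0.56. Of 78 cytosolic ribosomal protein genes 48 were higher and 1, RPL26, lower (median 0.21), with RPS21 up by 0.52 and RPS9 by 0.41. Replication and mitosis genes were higher in 19 of 40 and lower in 1 (median 0.26), led by the helicase subunit MCM2 (0.74), with cyclin CCNE2 the exception (-0.73). Of 40 replication-dependent histone genes 21 were higher and 0 lower (median 0.40; 0.25 without wild-type passage 29). These 4 groups depend on the scale for their calls: on log2(TPM + 1), 4, 2, 1 and 0 members were called higher, although the medians stayed above that of all genes by 0.24, 0.15, 0.19 and 0.37. Mitochondrially encoded RNAs gave 0 calls among 15 (median 0.07), and in the hypoxia and glycolysis list 15 of 30 were higher and 2 lower (22 and 2 without passage 29). The glycolytic enzyme ALDOA rose by 0.61 while the glucose transporter SLC2A1 fell, with 137.0, 116.1 and 117.2 CPM against 260.1, 216.5 and 298.7 CPM. In the cytoplasm fewer respiratory chain, ribosomal protein, replication and histone genes were called higher: 10 of 50, 7 of 78, 0 of 40 and 0 of 39. The numbers called lower there were 0, 0, 2 and 0, and the medians 0.11, 0.06, 0.06 and 0.13. Of all genes tested in the cytoplasm, 16.1% were called in either direction.

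Signalling and stress lists turned on a single wild-type library. Of 22 AP-1 and immediate early genes 3 were higher and 8 lower with a median of -0.33, but without wild-type passage 29 the counts were 8 and 4 and the median 0.15. EGR1, a growth factor-induced transcription factor, had 37.1, 36.0 and 55.9 CPM in knockout and 101.2, 80.1 and 229.9 CPM in wild-type libraries. AREG, a ligand of the EGF receptor, had 99.1, 99.0 and 119.2 CPM against 176.5, 159.3 and 563.0 CPM, and DUSP6, the ERK phosphatase, 114.7, 109.0 and 146.2 CPM against 198.8, 217.1 and 339.3 CPM. In each, passage 29 was far above the other wild-type libraries, yet those also lay above the knockout. Without passage 29 the log2 changes of EGR1, AREG and DUSP6 were -1.06, -0.65 and -0.73 in place of -1.67, -1.5 and -1.03. The ERK output list (3 higher, 5 lower of 22, median -0.10) and the integrated stress and unfolded protein list (5 and 1 of 25, -0.13) also turned positive without that library (8 and 4, 0.11; 12 and 0, 0.39), and no direction is given for them.

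More TGF-beta and mesenchymal genes were lower than higher with or without passage 29 (1 higher and 11 lower of 24, median -0.32; 3 and 9, -0.23). The receptor ligand gene TGFB1 itself rose by 0.50, and FN1, fibronectin, had 17.1, 22.4 and 21.1 CPM against 33.6, 31.8 and 56.1 CPM. Among Wnt and beta-catenin targets (4 higher, 6 lower of 18), BMP4, a secreted growth factor, had 45.3, 45.4 and 49.4 CPM against 170.0, 170.7 and 109.2 CPM. The Wnt inhibitor DKK1 had a change of -1.47 (-1.15 without passage 29), whereas cyclin CCND1 rose by 0.60. Of 27 p53 targets 10 were higher and 3 lower (16 and 3 without passage 29), with SPATA18 the absent gene named above. The YAP and TEAD list gave 3 and 4 of 18 (8 and 2 without passage 29), the NRF2 list 4 and 3 of 17 (8 and 2), and metallothioneins 2 and 0 of 4 (4 and 0).

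Interferon-stimulated and RNA-sensing genes were higher in 11 of 33 and lower in 1 (median 0.27; 15 and 1, 0.40 without passage 29). IFIT3, an interferon-induced RNA-binding family member, had 2.86, 3.23 and 2.79 CPM against 1.37, 1.38 and 0.629 CPM, and IFIT2 rose by 1.25. The peptide transporter TAP1 had 28.6, 25.5 and 28.1 CPM against 15.7, 14.8 and 18.7 CPM, and the double-stranded RNA enzyme OAS3 rose by 0.62. The RNA sensors RIGI and IFIH1 were not called (0.11 and 0.00).

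Lists of cell identity moved less evenly. HOX genes were higher in 12 of 30 and lower in 0 (14 and 1 without passage 29), led by HOXB8 with 38.6, 38.0 and 36.8 CPM against 16.8, 16.7 and 14.4 CPM. Epithelial junction and keratin genes were higher in 10 of 33 and lower in 3 (20 and 2 without passage 29), with the tight junction genes CLDN3 and CLDN4 up by 1.17 and 0.90 and GRHL2, an epithelial transcription factor, lower (-1.17). In the colon list 7 of 20 genes were tested, 1 higher and 3 lower (1 and 2 without passage 29). The higher gene was CDX2, an intestinal transcription factor (0.44). Of 25 collagen genes 5 were higher and 7 lower, and the median (-0.31) became 0.00 without passage 29 and 0.02 on the TPM scale.

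At loci under epigenetic control, zinc finger genes of chromosome 19 fell most widely. These genes encode KRAB-type repressors, many of which bind retrotransposons. Of 165 tested members 70 were lower and 14 higher (median -0.20; 73 and 16 without passage 29), and in the cytoplasm 51 were lower and 3 higher. ZNF426 had 0.722, 0.371 and 0.604 CPM against 7.67, 9.08 and 7.86 CPM, and ZNF550 fell by 2.34 on the log2 scale. On chromosome 19 as a whole the median was 0.18, the highest of all chromosomes, so the list fell on a chromosome where 34.8% of genes were higher. Imprinted genes gave 2 higher and 5 lower of 20 (3 and 5 without passage 29), cancer-testis antigens 3 and 2 of 7, clustered protocadherins 0 and 3 of 24 and DNA methylation enzymes 3 and 3 of 15. In the last list UHRF1, which brings DNMT1 to replicated DNA, rose by 0.55, DNMT1 by 0.32, and the demethylases TET1 and TET2 were lower (-0.38 and -0.30).

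Splicing factors showed no common direction. SR proteins gave 2 higher and 2 lower of 13, hnRNP proteins 8 and 2 of 25 and tissue-type splicing regulators 5 and 2 of 13. The polypyrimidine tract proteins moved apart, with PTBP1 up by 0.35 and PTBP2 lower (-0.73; 55.6, 54.6 and 47.6 CPM against 86.2, 98.7 and 76.8 CPM). Small nucleolar RNA host genes gave 4 and 0 of 22, and 5 and 3 without passage 29. The markers of other cell types, of which 2 fibroblast, 3 blood cell, 2 endothelial and 5 neuronal genes were tested, gave 0 higher and 4 lower (PDGFRB, KDR, SNAP25 and MAP2), and 1 higher and 2 lower without passage 29. Their summed levels were 15.2 to 17.6 CPM in knockout and 15.6 to 21.9 CPM in wild-type libraries for fibroblasts, 1.89 to 2.11 and 1.09 to 2.52 CPM for blood cells, 0.486 to 0.719 and 0.669 to 1.80 CPM for endothelium and 144.4 to 158.7 and 158.8 to 208.4 CPM for neurons. The defining markers DCN and LUM of fibroblasts, PTPRC, CD3E, CD3D and MS4A1 of blood cells, CDH5 of endothelium and STMN2 and NEFL of neurons were listed at 0 in both groups.

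**Figure D3:**
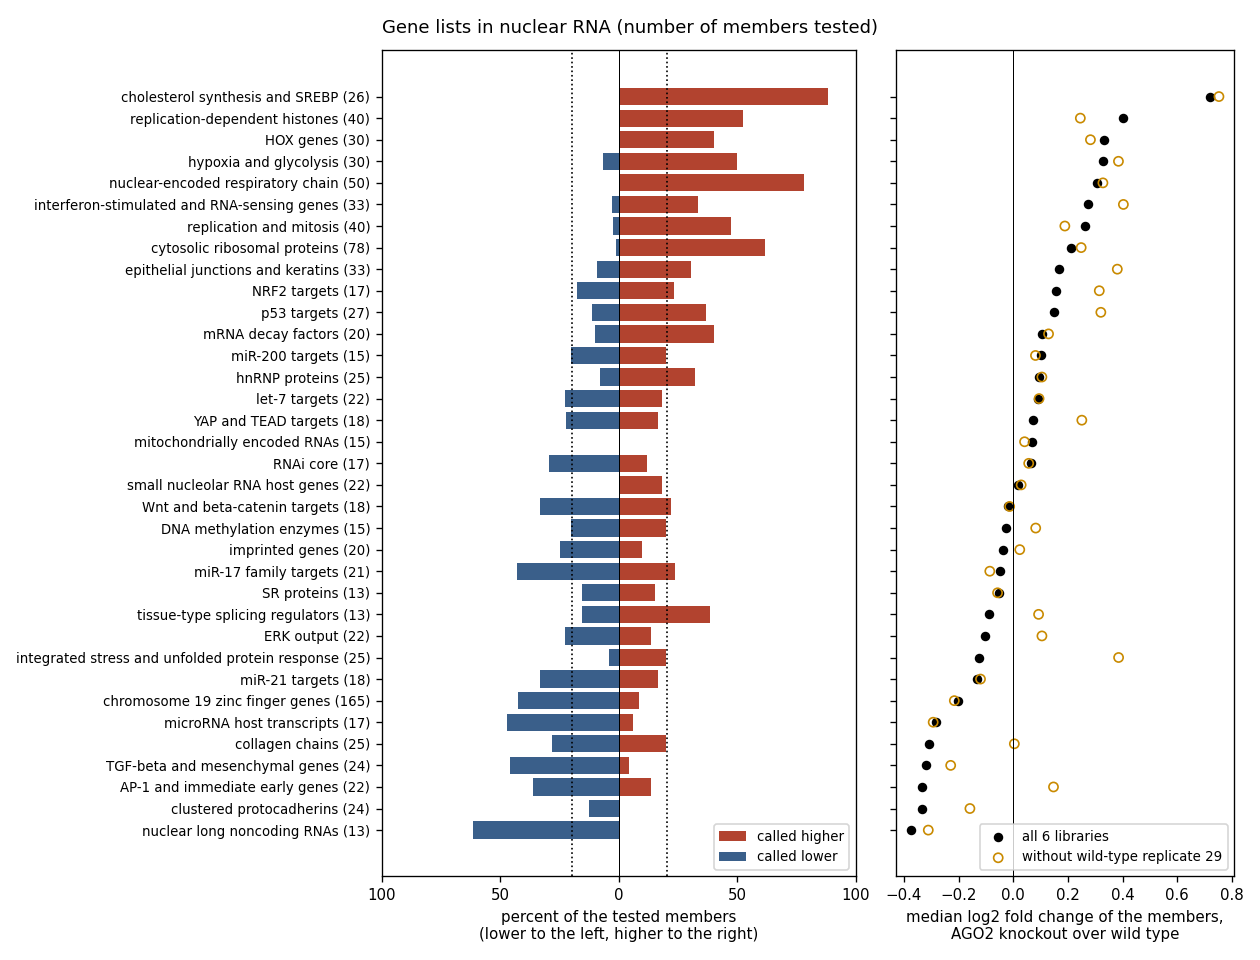
Left, the percentage of tested members of each gene list called higher (red, right) and lower (blue, left) in AGO2 knockout nuclei, for lists with at least 13 tested members; dotted lines mark the 20.2% and 19.9% over all genes. Right, the median log2 fold change of each list with all 6 libraries (filled) and without wild-type passage 29 (open): the cholesterol list stays highest in both (0.72 and 0.75), while the AP-1 list moves from -0.33 to 0.15.

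Nuclear noncoding RNAs are given next. Of 13 nuclear long noncoding RNAs 8 were lower and 0 higher (median -0.37; 9 and 0 without passage 29). FTX and JPX, noncoding genes of the X-inactivation centre, had 84.1, 82.2 and 79.6 CPM against 182.8, 211.2 and 184.4 CPM and 33.6, 31.0 and 31.1 CPM against 54.4, 59.8 and 50.6 CPM. MALAT1 was lower (-0.49). NEAT1, the scaffold of paraspeckles (-0.27), KCNQ1OT1 (-0.21), TUG1 (-0.14), HOTAIRM1 (-0.27) and NORAD (-0.09) were not called. In the cytoplasm 3 of 12 members tested were higher and 2 lower. Of 17 microRNA host transcripts 8 were lower and 1 higher, the coding gene MCM7, which carries the miR-106b cluster. MIR100HG, the host of miR-100 and let-7a-2, had 161.5, 161.3 and 158.3 CPM against 215.0, 219.2 and 236.5 CPM, and MIR17HG, the host of the miR-17 cluster, was not called (0.22).

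By gene class, 3656 of 13601 protein-coding genes were higher (26.9%) and 2401 lower (17.7%), against 104 higher (3.22%) and 793 lower (24.6%) of 3229 lncRNA genes. Processed pseudogenes were lower in 289 of 1009 and higher in 19, and small nuclear RNAs lower in 19 of 42 and higher in 1 (12 and 1 without passage 29); near-identical copies make single members of both classes uncertain. Transcripts annotated with a retained intron took 6.21% to 6.35% of reads in the knockout and 8.18% to 8.55% in wild-type libraries, with no overlap. The other knockout lines also lay below wild type in the nucleus. Their shares were 6.93% to 7.28% without AGO1, 4.07% to 4.39% without AGO1/2 and 4.46% to 5.19% without AGO1/2/3. In AGO1 knockout nuclei MALAT1 took 1.051% to 1.195% of reads, much as in AGO2 knockout nuclei. Calls also differed with how nuclear a transcript is. Genes were divided into 5 equal classes by their nuclear over cytoplasmic level in AGO1 knockout cells, whose nuclear libraries are not in the contrast but share the fit's estimate of spread. From the most cytoplasmic to the most nuclear class, the share called higher was 42.0%, 31.9%, 23.7%, 12.4% and 3.83%, and the share called lower 5.41%, 11.3%, 15.7%, 23.7% and 39.5%. The medians ran from 0.23 to -0.30, and on the TPM scale from 0.15 to -0.18 relative to all genes. The mitochondrial shares given above overlapped between the groups. The nuclear RNAs MALAT1 and PVT1 were lower in knockout nuclei (-0.49 and -0.37) and higher in knockout cytoplasm (0.60, adjusted p = 0.00436, and 0.40, adjusted p = 0.0257), and NEAT1 was higher in the cytoplasm (0.61, adjusted p = 0.0117). MALAT1 took 0.116% to 0.145% of cytoplasmic reads in knockout and 0.0654% to 0.0989% in wild-type libraries. The part of fractionation in these results was not tested.

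**Figure D4:**
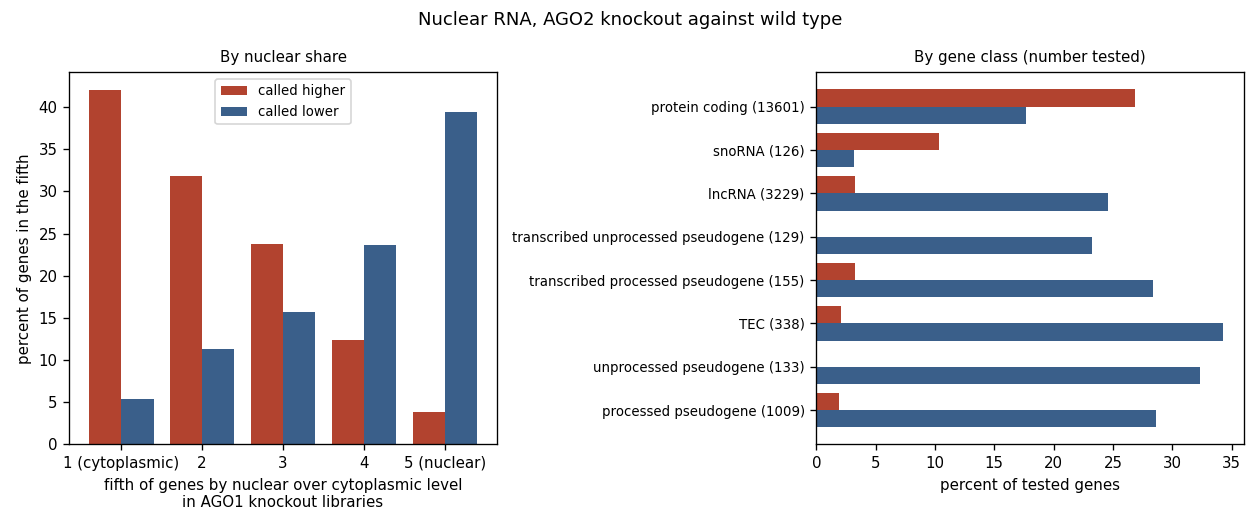
Percentage of tested genes called higher (red) and lower (blue) in AGO2 knockout nuclei: left, in 5 equal classes of genes ordered by their nuclear over cytoplasmic level in AGO1 knockout libraries; right, by gene class for classes with at least 100 tested genes. Calls go from 42.0% higher and 5.41% lower in the most cytoplasmic class to 3.83% and 39.5% in the most nuclear one.

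MicroRNA seed matches were searched next, because AGO2 carries microRNAs. The mature forms below (RefSeq, GRCh38.p14) include the families whose sites gave the highest (miR-24) and lowest (miR-21) median and 1 of the tissue-restricted families (miR-122), with the seed, bases 2 to 8, in capitals.
hsa-let-7a-5p: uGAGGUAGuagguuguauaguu
hsa-miR-17-5p: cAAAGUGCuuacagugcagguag
hsa-miR-21-5p: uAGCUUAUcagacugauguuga
hsa-miR-92a-3p: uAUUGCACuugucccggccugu
hsa-miR-200b-3p: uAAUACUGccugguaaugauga
hsa-miR-24-3p: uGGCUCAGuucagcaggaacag
hsa-miR-122-5p: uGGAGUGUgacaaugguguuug
A site was the match to the seed followed by A, 8 bases read on the transcript strand. The letters were CTACCTCA for let-7 (in 4.34% of the 13532 coding genes with a 3′ untranslated region), GCACTTTA for miR-17 (5.39%), ATAAGCTA for miR-21 (2.71%), GTGCAATA for miR-92 (3.52%), CAGTATTA for miR-200b (5.11%), CAGTGTTA for miR-200a (5.38%), ACTGTGAA for miR-27 (6.62%), TGTTTACA for miR-30 (8.88%), ATGCTGCA for miR-103 (4.45%), TGCACTGA for miR-148 (4.71%) and CTGAGCCA for miR-24 (6.21%). For comparison, miR-122 of liver (ACACTCCA, 3.27%), miR-1 of muscle (ACATTCCA, 5.35%) and miR-208 of heart (CGTCTTAA, 0.680%) were searched in the same way.

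Genes with a site were set beside all genes. The median log2 change was 0.06 over all 13532 genes. For the 11 families of the main set it ran from -0.08 (miR-21, 54 higher and 116 lower of 367) to 0.04 (miR-24, 220 and 171 of 840), and it was -0.00 for let-7, with 133 of 587 genes lower. For the 3 tissue-restricted families it was -0.00, -0.01 and -0.00. With 8-base sites on the count scale all 14 families lay below the median of all genes, the tissue-restricted ones included. With 7-base sites miR-24 lay just above it (0.07), and on the TPM scale its 8-base median was 0.02, as was that of all genes. Length moves with this measure: genes with a site had a median 3′ untranslated region of 2936 to 3404 bases against 1284 bases over all. Genes with regions under 500 bases had a median of 0.14 and those of 4000 bases or more -0.07. Within length classes the median was lower with more sites, where at least 20 genes could be counted. From 2000 to under 4000 bases it was 0.03 with 0 sites of the 11 families, 0.01 with 1 or 2 and -0.09 with 3 or more. From 4000 bases it was -0.02, -0.06 and -0.12. Length was not held fixed, since the median region also rose with the number of sites inside these classes. It was 2644, 2852 and 3028 bases in the shorter class and 4895, 5207 and 6413 bases in the longer one. The part of length was not tested.

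Known targets moved in both directions. Of 22 tested let-7 targets 4 were higher and 5 lower (5 and 3 without passage 29), with MYC up by 0.44 and the RNA-binding protein IGF2BP3 down (202.3, 207.8 and 211.7 CPM against 330.9, 339.9 and 409.2 CPM). miR-17 family targets gave 5 and 9 of 21 (8 and 6 without passage 29), with the cell cycle factor E2F1 up by 0.52 and SMAD7, an inhibitor of TGF-beta signalling, lower (-0.996). miR-21 targets gave 3 and 6 of 18 (3 and 5), with the transcription factor NFIB up (43.5, 44.6 and 43.1 CPM against 24.3, 20.9 and 26.02 CPM) and the metalloproteinase inhibitor TIMP3 close to absent (31 reads against 223, 11.2-fold lower, interval 7.70 to 16.9). miR-200 targets gave 3 and 3 of 15 (4 and 3), with MSN, moesin, up by 0.63 and the Notch ligand JAG1 lower (-0.78).

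**Figure D5:**
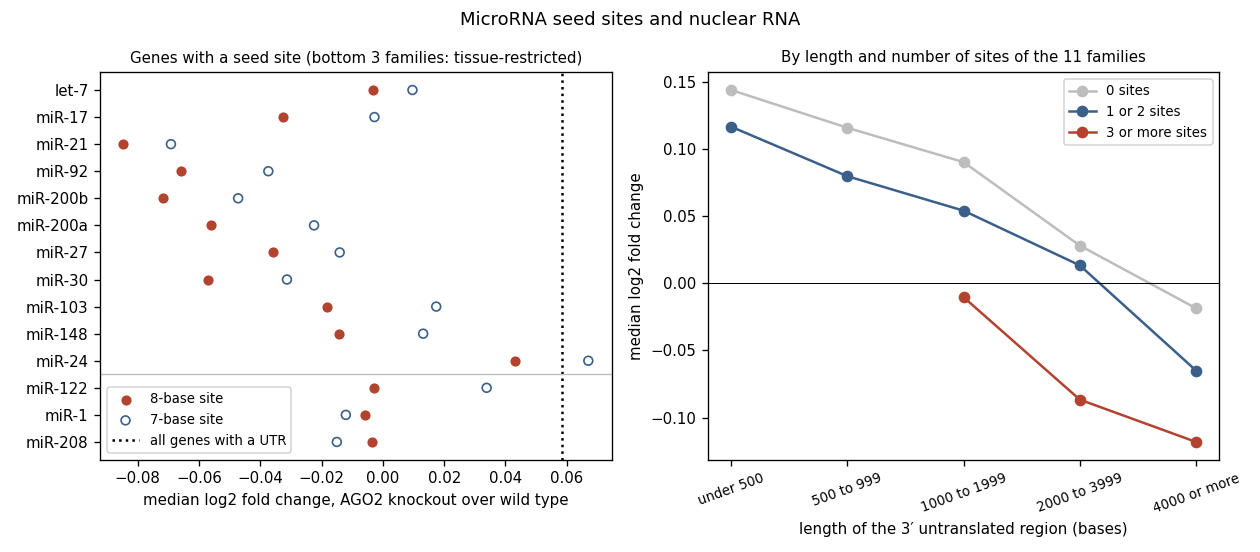
Median log2 fold change, AGO2 knockout over wild type, of genes whose 3′ untranslated region holds a seed site: left, by microRNA family for 8-base (filled) and 7-base (open) sites, with the median of all 13532 genes (0.06) as a dotted line; right, by length of the region and number of 8-base sites of the 11 families, leaving out classes under 20 genes. Medians fall with length, from 0.14 under 500 bases to -0.07 from 4000 bases, and lie lower with more sites. Genes with more sites also have longer regions within each length class.

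The cytoplasm of the same lines was used to ask whether the nuclear changes were shared. In cytoplasmic RNA 2828 of 17605 genes were called (16.1%), 1244 higher and 1584 lower. Of the 3806 genes called higher in the nucleus and tested in both fractions, 911 were called higher in the cytoplasm and 7 lower, and of the 3196 called lower, 1047 were lower and 43 higher. Of the larger changes, 74 of 109 genes that rose at least 2-fold in the nucleus were called higher in the cytoplasm and 0 lower, and 358 of 651 that fell at least 2-fold were called lower and 1 higher. In the cytoplasm the log2 change was -0.67 for AGO2, -5.15 for SEMA3A, -3.16 for PXDN, -2.93 for HAS3, 1.92 for SUSD2 and 1.71 for ADGRF1, all called, and ANXA10 averaged 0.0542 CPM against 25.7 CPM. SCD, SNHG9, TERC and MAGI1-IT1 were not called there (0.75, -0.11, 0.16 and -0.84). AGO3, lower in the nucleus, was higher in the cytoplasm (0.28, adjusted p = 0.0212), and the interaction of fraction and genotype was not called for it without a replicate block (-0.52, adjusted p = 0.0757) and was called with the culture passage as a replicate block (-0.53, adjusted p = 0.00191).

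A direct test of that interaction called 340 of 18685 genes (1.82%), 39 with a nuclear change above the cytoplasmic one and 301 below it, and 2982 had an unadjusted p below 0.05. Of the 301, 196 were protein-coding, 68 lncRNA and 15 processed pseudogene genes, while no lncRNA gene was among the 39. With the culture passage as a replicate block it called 2356 genes, 1062 above and 1294 below. The labels give the 2 fractions of a line the same passage numbers and do not say that they came from 1 harvest. The count without the block rests on single libraries, since it ran from 41 without nuclear wild-type passage 28 to 555 without nuclear wild-type passage 29. Among named genes, ZNF91 (-0.63), MAGI1-IT1 (-1.79) and NR2F2-AS1 (-1.17) fell more in the nucleus than in the cytoplasm. Their adjusted p in the edgeR interaction test without the block lay near the threshold (0.0373, 0.0497 and 0.0428). With the block it was 0.00145, 0.00438 and 0.00425. MAGI1-IT1 was low in the cytoplasm, with means of 0.347 CPM in knockout and 0.622 CPM in wild-type libraries. SLC23A2, a vitamin C transporter, went the other way: in the nucleus it had 27.2, 26.7 and 25.04 CPM against 56.4, 47.7 and 60.8 CPM (-1.06), and its change in the cytoplasm was -2.61, an interaction of 1.48 (adjusted p = 0.000916).

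The AGO1 knockout line, also a single line of low passage (6, 7 and 8), was compared directly with the AGO2 knockout line in the nucleus. The contrast called 4996 of 18919 genes (26.4%), 2804 higher and 2192 lower in AGO2 knockout cells. AGO1 was higher by 1.41 and AGO2 lower (-0.34, adjusted p = 0.00471), the directions the labels of both lines call for. The genes with the largest falls against wild type also separated the 2 knockout lines. SEMA3A had 179.9, 196.2 and 204.6 CPM in AGO1 knockout libraries, ANXA10 39.2, 36.1 and 35.9 CPM, ZNF595 15.4, 12.7 and 14.5 CPM and DPEP1, a membrane dipeptidase, 5.75, 6.43 and 6.98 CPM, against 0.0833, 0.0857 and 0.144 CPM of DPEP1 in AGO2 knockout cells. PURPL, a p53-induced lncRNA, had 84.2, 90.5 and 87.0 CPM against 0.306, 0.371 and 0.432 CPM, with 3.70, 4.06 and 5.08 CPM in wild-type cells, between the lines. In the other direction, EHF, an epithelial ETS factor, had 62.6, 65.5 and 64.5 CPM in AGO2 knockout, 3.93, 4.07 and 3.20 CPM in AGO1 knockout and 25.6, 27.9 and 33.1 CPM in wild-type libraries. PRPS1, which makes the ribose precursor of nucleotides, had 50.1, 47.5 and 47.1 CPM against 2.93, 2.77 and 3.49 CPM in AGO1 knockout libraries. Wild-type libraries had 32.8, 31.3 and 28.9 CPM of PRPS1. Most of its gap was thus a fall in the AGO1 knockout (-3.34 against wild type, and 0.64 in the AGO2 knockout). SUSD2 and S100A4 were higher than in the AGO1 knockout by 3.63 and 3.22.

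Lists with many members above wild type were also read between the knockout lines. In the cholesterol list 3 members were higher and 1 lower than in the AGO1 knockout (median 0.09), with SQLE among the higher (0.55) and FDPS the lower (-0.41). INSIG1 and SCD were 0.42 and 0.22 above the AGO1 knockout and not called. In the respiratory chain list the numbers were 2 and 6 of 50 and in the histone list 0 and 3 of 40. Ribosomal protein genes were lower than in the AGO1 knockout in 37 of 78 and higher in 0 (median -0.19). Of 27 p53 targets, 13 were lower than in the AGO1 knockout and 0 higher (median -0.27). Zinc finger genes of chromosome 19 were lower in 64 of 165 and higher in 4, interferon genes higher in 15 of 33 and lower in 0, and epithelial genes higher in 15 of 33 and lower in 2. Both lines share the wild-type libraries in their comparisons with wild type, which do not enter this contrast.

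Position along the genome was examined because the knockout is 1 line. Chromosome medians ran from -0.20 on chromosome 18 to 0.18 on chromosome 19. In 275 windows of 10 Mb with at least 20 tested genes, the lowest medians were both beside the centromere of chromosome 9: from 40000001 to 50000000, 16 of 22 genes were lower and 0 higher (median -1.26), and from 60000001 to 70000000, 28 of 46 were lower and 0 higher (median -1.07). A wider stretch around the centromere, chosen after these values were seen, held 68 tested genes, of which 45 were lower and 0 higher. Most of them are the genes of the 2 windows counted again, so this count is not separate support. CNTNAP3 (9, 39064710 to 39288315, minus strand) and CNTNAP3B, cell adhesion proteins of the neurexin family, had changes of -1.36 and -1.63, ANKRD20A1 -1.24, ZNG1F -1.06 and ZNG1E -1.13. Many of these genes belong to families of near-identical copies, such as CNTNAP3 with CNTNAP3B and ZNG1E with ZNG1F. Reads could be divided among the copies of a family, so single members are uncertain. In the cytoplasm the medians of the 2 windows were -0.91 and -0.55, and against the AGO1 knockout -1.14 and -0.87. Of the genes named, CNTNAP3, CNTNAP3B and ANKRD20A1 were called lower in the cytoplasm (-0.97, -0.88 and -0.91). ZNG1F and ZNG1E were not called there (-0.09 and -0.16). The highest medians were in gene-dense windows, 19 from 1 to 10000000 (0.28) and 11 from 60000001 to 70000000 (0.26).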

How the data were processed

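RNA from nuclei was sequenced after ribosomal RNA depletion with a strand-specific kit. The authors deposited, per library, Salmon tables with 1 row for each transcript that hold an estimated count and a TPM value. The TPM values as deposited were scaled by the authors for effective transcript length and library. Per the labels' processing notes the tools were STAR 2.5.3a, Salmon 0.11.0 and DESeq2 on build hg38, while the study's methods give other STAR and Salmon versions. Values were summed per gene with GENCODE 44 (GRCh38), which matched 196040 of 200401 transcripts, and the unmatched transcripts held 3.50% to 3.86% of the nuclear reads. Estimated counts were rounded to whole numbers.

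All 15 nuclear libraries entered edgeR 4.0.16 (R 4.3.3, TMM, filterByExpr with a minimum count of 10, quasi-likelihood test, Benjamini-Hochberg threshold 0.05), 12 libraries of both fractions entered the interaction model, and the scripts were tested on simulated counts. TPM were tested with limma 3.58.1 as log2(TPM + 1), where fold changes of low genes are understated, and DESeq2 1.42.0 was an alternative. Named genes were called, had groups that did not overlap and reached 5 TPM in the higher group (4584 candidates), the most changed 12 protein-coding and 5 lncRNA genes being taken in each direction, beside up to 2 per list and direction and 5 per direction for the interaction and the AGO1 knockout contrast. Genes of chromosome Y, XIST, mitochondrial genes and clone-named transcripts were not named. Genes and lists were chosen with earlier results of these data known, and the values without wild-type passage 29 for lists and gene classes were added after the data were seen. Read intervals are exact 95% intervals that cover counting error only. Promoters of chromosomes 8 and Y were not searched. The eCLIP samples were not used here. Some genes that the naming rule picked are not reported here.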

Additional observations from a re-analysis of the deposited data

Results flagged for a closer look

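These 10 genes had an AGO2 knockout effect that differed between nucleus and cytoplasm in the edgeR interaction test. Values are nuclear minus cytoplasmic log2 changes. SLC23A2 (1.48; -1.06 in the nucleus, -2.61 in the cytoplasm) kept its call when any 1 library was left out. VPS45 (1.81), a vesicle trafficking factor, had -0.35 in the nucleus and -2.21 in the cytoplasm. The U4 spliceosomal RNA copies RNU4-1 (0.77) and RNU4-2 (0.76) are near-identical, so reads could be divided between them. BPTFP1 (6.65), a pseudogene, was at 0 CPM in all cytoplasmic knockout libraries, and its fitted value depends on the prior count. In the other direction stood the pseudogenes RPL7AP22 (-2.66), RPS3AP38 (-2.37), OR51K1P (-2.30), RPS15AP30 (-2.25) and RPL23P4 (-2.06), most of them copies of ribosomal protein genes whose reads can come from the parent gene.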

How the results depend on the processing

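The count of genes called in the nucleus was 7596 and ran from 6346 to 7745 when 1 library was left out. It was 5821 with only the 2 groups in the fit, 6606 with a mean count of at least 50 and 6671 with length-scaled counts. Genes with at least a 2-fold change numbered 1175, 1070 to 1257 when 1 library was left out, 453 with a mean count of at least 50 and 389 with limma on log2(TPM + 1). They numbered 957 with only the 2 groups in the fit and 1447 with limma on log2(TPM + 0.1). The log2 change of AGO2 (-0.47) ran from -0.51 to -0.39 when 1 library was left out, and was -0.52 with a mean count of at least 50, -0.43 with no filter, -0.80 on log2(TPM + 1) and -0.82 on log2(TPM + 0.1). The contrast with the AGO1 knockout gave 3707 to 4137 genes when 1 library was left out, 2684 with limma and 6803 with only the 2 groups in the fit, against 4996. The interaction count of 340 was the least stable: 41 to 555 when 1 library was left out (41 without nuclear wild-type passage 28, 555 without nuclear wild-type passage 29), 991 with DESeq2, 1390 with limma and 2356 with the culture passage as a replicate block. Deviations from the group means in the 2 fractions of a passage correlated at 0.108, 0.0152 and 0.0514 in knockout and 0.188, 0.167 and 0.447 in wild-type cells, not all above 0.1, and the labels do not say whether the fractions of a passage came from 1 harvest. On log2(TPM + 1) and log2(TPM + 0.1) the sign turned for DICER1 (-0.0111 and -0.0107), BMI1 (-0.16 and -0.164), SRSF9 (-0.0458 and -0.0463), CD44 (-0.0295 and -0.0295), IGF2R (-0.0454 and -0.0473) and GNAS (-0.0285 and -0.0287). Of the other values for named genes, 1944 kept direction and side of the threshold, 174 lost the call and 3 gained it. The causes were not tested. No endothelial marker was left at a mean count of 50. The wild-type libraries, with fewer reads, limit what can be seen at low counts.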
